A study of Homo sapiens with 48 samples.

Results

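The genes described here encode the proteins of the cytosolic ribosome. They were taken from the gene names of the count table: RPL or RPS followed by a number, with RPSA, RPLP0, RPLP1 and RPLP2, without pseudogenes, the RPS6K kinases, Y-linked RPS4 genes and low-count L-suffixed paralogs, and with a mean of at least 1 count per 1000000 reads (CPM). Of the 25066 genes of the table, 79 met this rule, 32 of the small subunit and 47 of the large subunit, and all 79 had enough reads to be tested. The minimum left out RPL10L, with a mean of 0 CPM, and RPL3L, with a mean of 0.0276 CPM. The lowest gene that it kept was RPL39L at 17.0 CPM, followed by RPS27L at 54.1 CPM and RPS26 at 217 CPM. The rule can be read either way on RPL39L and RPS27L, which carry the L suffix that it drops at low counts. Both passed the minimum and were kept, and RPL39L supplies 1 of the 2 lower calls with copanlisib in HBL1 and the 1 higher call of DMSO over time in TMD8. The fusion gene FAU and the ribosome-bound scaffold gene GNB2L1 (RACK1) do not carry such a name and are given separately.

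The RNA came from 2 lines of diffuse large B cell lymphoma, TMD8 and HBL1, both engineered to carry Cas9, so every group shares that background. Cells were kept for 3, 6 or 24 h with vehicle (DMSO), NGI-1 at 5 µM, acalabrutinib at 50 nM or copanlisib at 20 nM. NGI-1 inhibits the oligosaccharyltransferase that attaches N-glycans, acalabrutinib inhibits the kinase BTK below the B cell receptor, and copanlisib inhibits the phosphoinositide 3-kinase PI3K. The 48 libraries made 24 groups of 2, and each held 7165377 to 11999050 counted reads. The labels do not say whether the Cas9 lines are single clones or whether the 2 replicates were separate cultures. All 8 B cell markers of a fixed list, among them CD79A and PAX5, had at least 1 CPM in both lines, and their summed level was 4360 to 9060 CPM. Summed over their lists, markers of T and NK cells reached at most 2.62 CPM and markers of myeloid cells at most 3.42 CPM, with the granulocyte gene S100A9 at 0 reads. Stromal and epithelial markers summed to 8.38 to 25.7 CPM.

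A ribosome joins a small subunit, which reads the mRNA, to a large subunit, which forms the peptide bond and holds the exit tunnel for the new chain. Each subunit is built in the nucleolus from ribosomal RNA and ribosomal proteins, with the help of assembly factors, and its proteins are made in near-equal numbers. Most mRNAs of ribosomal proteins begin with a run of pyrimidines, the 5′ terminal oligopyrimidine (TOP) motif. Through it their translation, and through binding by LARP1 their stability, respond to the kinase complex mTORC1, which acts downstream of PI3K. MYC drives the transcription of many genes of ribosome assembly.

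The transcription starts of the genes that carry the results below are shown to let the run be seen. RefSeq promoter sequences of build GRCh38.p14 were used for 63 of the 79 genes. The other 16 are not shown to lack an entry, and the background of all genes may not leave out the same ones. Each line holds 25 bases before the start and 25 from the start on, 5′ to 3′ on the gene's strand, and capitals mark the pyrimidine run from a start at C, where there is one.
RPS27, chr1:153990737-153990786, plus strand: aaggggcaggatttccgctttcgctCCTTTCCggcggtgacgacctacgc
RPL13A, chr19:49487583-49487632, plus strand: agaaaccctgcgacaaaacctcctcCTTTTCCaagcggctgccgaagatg
RPLP0, chr12:120201087-120201136, minus strand: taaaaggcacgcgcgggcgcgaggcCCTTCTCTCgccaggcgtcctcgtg
RPL12, chr9:127451382-127451431, minus strand: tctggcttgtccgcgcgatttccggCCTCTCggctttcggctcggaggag
RPL3, chr22:39319599-39319648, minus strand: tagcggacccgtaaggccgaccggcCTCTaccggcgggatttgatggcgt
RPS26, chr12:56041893-56041942, plus strand: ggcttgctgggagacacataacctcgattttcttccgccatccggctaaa
RPS27L, chr15:63157453-63157502, minus strand: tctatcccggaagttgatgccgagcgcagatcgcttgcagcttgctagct
A start at C followed by at least 4 pyrimidines was present in 46 of the 63 genes (73%) and in 5.14% of all 27305 genes of the table. RPS26 and RPS27L had no C at the annotated start, and the run of RPL3 was shorter than the definition. Over the window of 250 bases before and 50 bases after the start, CCGGAAG, the core bound by ETS factors, was found on either strand in 36.5% of the ribosomal protein genes and in 12.2% of all genes. GGGCGG, a GC box, was in 58.7% against 48.3%, TATAAA in 7.94% against 14.0%, and the E-box CACGTG, which MYC can bind, in 6.35% against 8.77%. The YY1 motif CAAGATGGC was in 3.17% against 1.72%. These are matches of letters in a window and not measured binding.

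Ribosomal protein genes took up a large share of each library, and at 24 h that share was higher with each compound than with DMSO in both lines. In TMD8 at 24 h the 2 DMSO libraries had 10.6% and 11.3% of their reads on the 79 genes. The values were 12.1% and 12.7% with NGI-1, 12.1% and 13.2% with acalabrutinib, and 12.0% and 14.1% with copanlisib. In HBL1 the DMSO libraries had 8.81% and 8.82%, against 10.0% and 10.4% with NGI-1, 10.4% and 11.0% with acalabrutinib, and 11.3% and 11.4% with copanlisib. In 6 of 6 cases both treated libraries lay above both DMSO libraries. The mean differences from DMSO were 1.40, 1.65 and 2.05 percentage points in TMD8 and 1.39, 1.89 and 2.53 in HBL1, in the order NGI-1, acalabrutinib, copanlisib. With 2 libraries a group, no exact permutation test of one share can pass a threshold, so these are descriptions. An exact (Clopper-Pearson) 95% interval of each share was at most 0.024 points to either side, which covers counting error only. A share of reads cannot tell more RNA of these genes from less RNA of other genes, and it does not measure RNA per cell.

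In DMSO the share was highest at 3 h by group mean, where it was 11.3% and 11.7% in TMD8 and 10.8% and 10.9% in HBL1. At 6 h it was 10.7% and 10.9% in TMD8 and 9.59% and 10.4% in HBL1. In HBL1 the 24 h libraries lay below all earlier DMSO libraries, whereas in TMD8 the 24 h libraries spanned the 6 h values. The higher TMD8 library at 24 h (11.346%) also lay above the lower one at 3 h (11.321%). At the early times, the compound libraries lay outside the DMSO range with NGI-1 and copanlisib in TMD8 at 3 and 6 h and with copanlisib in HBL1 at 3 h, always above it. Large-subunit genes had 1.31 to 1.43 times the reads of small-subunit genes in the TMD8 groups and 1.61 to 1.69 times in the HBL1 groups.

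**Figure D1:**
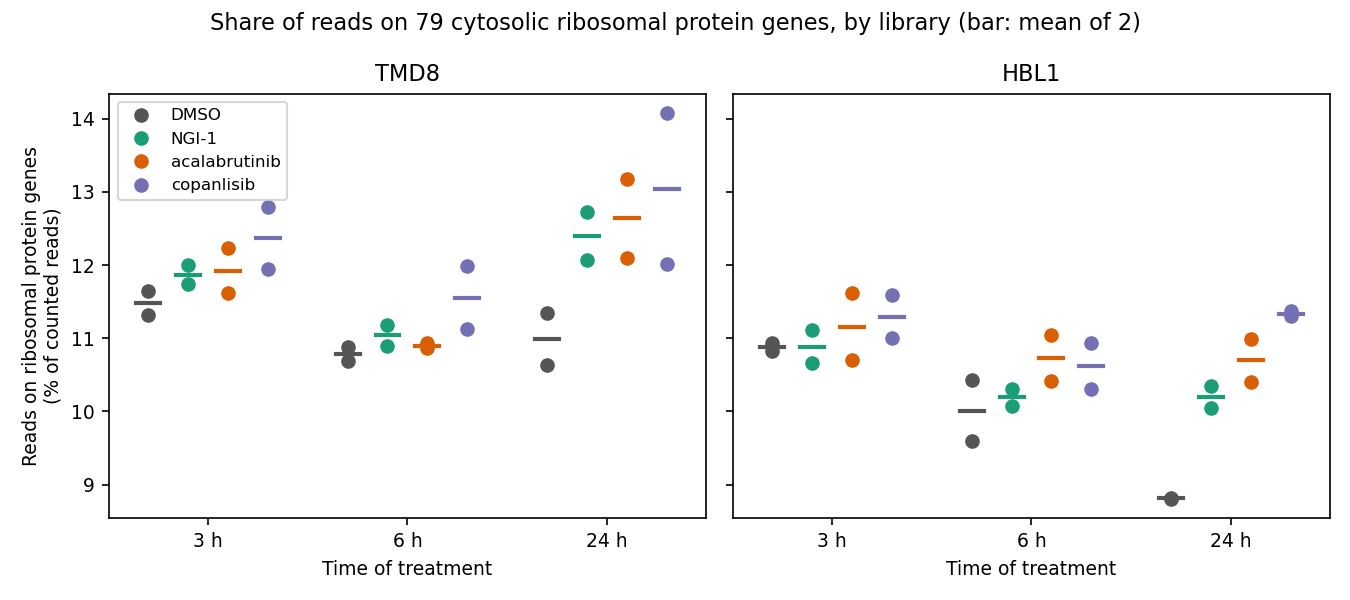
Percentage of each library's counted reads that fell on the 79 ribosomal protein genes (y axis, which does not start at 0), by hours of treatment (x axis), in TMD8 and HBL1. Each point is a library and each bar the mean of 2. At 24 h all compound libraries lie above the DMSO libraries of the same line, which in HBL1 sit at 8.81% and 8.82%.

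Gene by gene, each compound was compared with the DMSO group of its line and time by edgeR's quasi-likelihood test, and a gene was called at a Benjamini-Hochberg adjusted p under 0.05 over all 13881 genes tested. Changes are log2 fold changes ± SE. At 24 h between 15 and 60 of the 79 ribosomal protein genes were called higher with a compound, by small amounts, and at most 2 were called lower. In TMD8, NGI-1 gave 22 genes called higher and 1 called lower (27.8% and 1.27% of the 79, beside 15.6% and 14.8% of all genes tested), with a median change of 0.13, beside 0.0101 over all genes. In HBL1, NGI-1 gave 15 higher and 1 lower (19.0% and 1.27%, beside 7.87% and 11.4%), with a median of 0.16 beside 0. Acalabrutinib in TMD8 gave 23 higher and 1 lower (29.1% and 1.27%, beside 15.3% and 15.5%), with a median of 0.15 beside 0.00737. In HBL1 it gave 36 higher (45.6%, beside 7.53%), with a median of 0.22 beside -0.0124. Copanlisib in TMD8 gave 37 higher and 1 lower (46.8% and 1.27%, beside 15.6% and 16.0%), with a median of 0.20 beside 0.00199. In HBL1 it gave 60 higher and 2 lower (75.9% and 2.53%, beside 12.5% and 17.7%), with a median of 0.30 beside -0.0178. With acalabrutinib in HBL1, 0 members were called lower by edgeR or by DESeq2, and 1 had a negative change at an unadjusted p under 0.05, beside 11.4% of all genes called lower by edgeR. All 3 compounds at 24 h in a line were compared with the same 2 DMSO libraries, so the 3 results in a line are not independent.

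Positive changes were more numerous than calls. Of the 79 genes, 64 and 74 had a positive change with NGI-1 in TMD8 and HBL1, 71 and 77 with acalabrutinib, and 73 and 76 with copanlisib. Members at an unadjusted p under 0.05, in either direction, numbered 32 and 33 with NGI-1 (40.5% and 41.8%, beside 40.0% and 31.0% of all genes), 32 and 55 with acalabrutinib (40.5% and 69.6%, beside 40.6% and 30.4%), and 42 and 67 with copanlisib (53.2% and 84.8%, beside 40.5% and 38.9%). With NGI-1 and acalabrutinib in TMD8 that share was the same as over all genes to within 1 percentage point. Both subunits took part: genes called higher numbered 7 of 32 small-subunit and 15 of 47 large-subunit genes with NGI-1 in TMD8, and 19 of 32 and 41 of 47 with copanlisib in HBL1. The number of calls depended on single libraries. With each 24 h library left out in turn, the calls in either direction with NGI-1 went from 23 to between 12 and 15 in TMD8, where leaving out any of the 4 libraries had this effect, and from 16 to between 5 and 8 in HBL1, again with any of the 4. With acalabrutinib they went from 24 to 11 without TMD8 DMSO replicate 1 and 14 without DMSO replicate 2, and from 36 in HBL1 to 9 without DMSO replicate 2, 14 without acalabrutinib replicate 2, 19 without DMSO replicate 1 and 21 without acalabrutinib replicate 1. With copanlisib they went from 38 to 12 without TMD8 copanlisib replicate 2, 16 without DMSO replicate 1 and 23 without DMSO replicate 2, and from 62 to 36 without HBL1 copanlisib replicate 1 and 37 without DMSO replicate 2. The genes called higher in every such fit and under every other setting tried numbered 8 and 3 with NGI-1 in TMD8 and HBL1, 5 and 4 with acalabrutinib, and 9 and 28 with copanlisib. RPL13A and RPS27 were among them in each of the 6 comparisons.

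**Figure D2:**
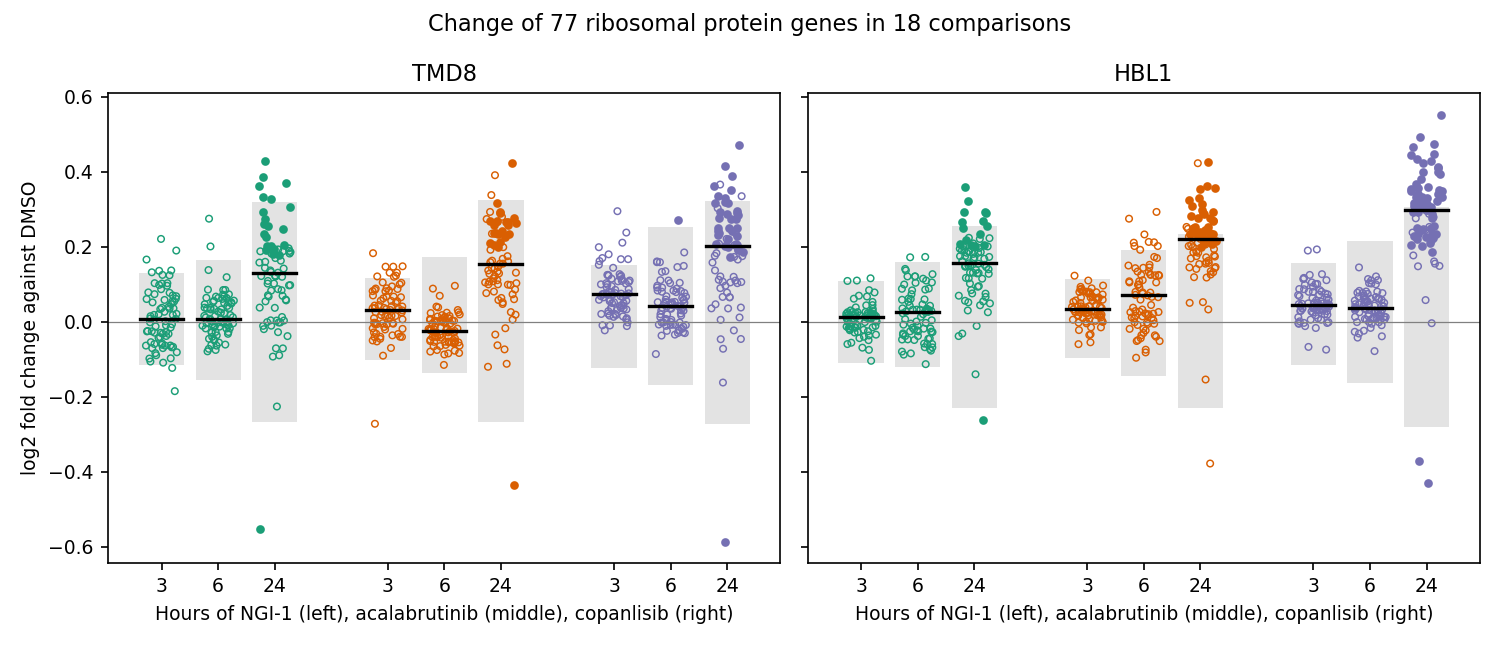
Log2 fold change against DMSO (y axis) of 77 ribosomal protein genes at 3, 6 and 24 h with NGI-1, acalabrutinib and copanlisib (x axis), in TMD8 and HBL1. Each point is a gene, filled where called at an adjusted p under 0.05, black bars are medians over the genes shown and grey boxes the 25th to 75th percentile of all 13881 genes tested. Filled points are nearly confined to 24 h, where medians lie at 0.13 to 0.30.

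Called higher in all 6 comparisons at 24 h were 6 genes: RPL3, RPL10, RPL13A, RPL30, RPLP0 and RPS27. The RPL30 calls with NGI-1 and acalabrutinib in both lines and with copanlisib in TMD8 had adjusted p of 0.0112 to 0.0267. Each of these RPL30 calls was lost in at least 1 other fit. At the other end, 17 genes were called higher in none. RPL35, which lies at the exit of the peptide tunnel, had 734 and 768 CPM in TMD8 with DMSO, 676 and 732 with NGI-1, 687 and 740.1 with acalabrutinib, and 664 and 790.5 with copanlisib, so the groups overlapped in 2 of the 3 cases. Its changes over the 6 comparisons ran from -0.09 to 0.06 with SE 0.09, those of RPL24 from -0.07 to 0.04 with SE 0.09 and those of RPS16 from -0.04 to 0.15 with SE 0.08, and none of these was called. RPL36 was called once, with copanlisib in HBL1 (0.23 ± 0.08, adjusted p = 0.0222), lost without DMSO replicate 2 (0.16) or either copanlisib library (0.053 and 0.13), and its other changes ran from -0.12 to 0.13. The remaining genes were called higher in 1 to 5 comparisons.

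**Figure D3:**
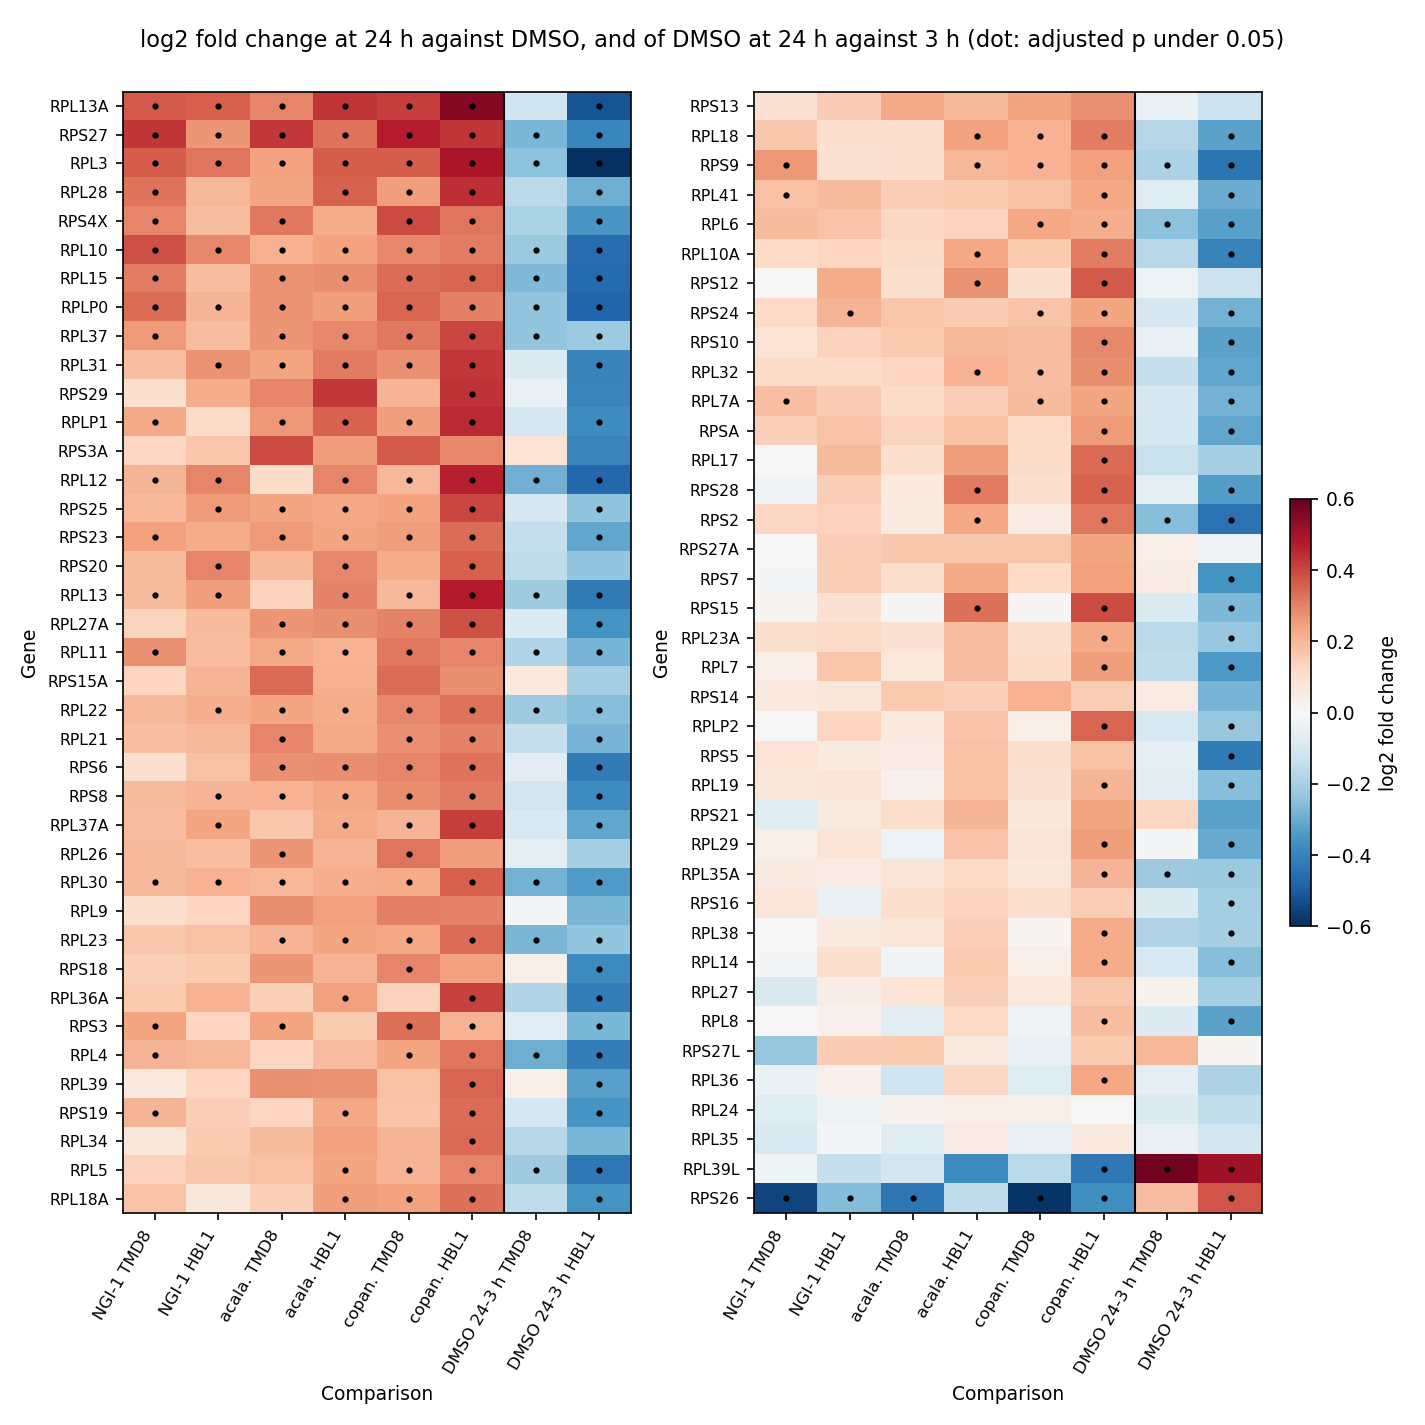
Log2 fold change (colour, from -0.6 to 0.6) of 77 ribosomal protein genes (rows, ordered by mean change at 24 h) in the 6 comparisons with DMSO at 24 h and, right of the black line, in DMSO at 24 h against 3 h. Dots mark an adjusted p under 0.05. Most rows are red on the left and blue on the right, and RPS26 and RPL39L at the lower end show the opposite colours.

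RPL13A is a large-subunit protein that also has a role outside the ribosome in silencing inflammatory mRNAs. In TMD8 its scaled level was 7229.6 and 7563 CPM in the DMSO libraries at 24 h, 9260.0 and 9848 with NGI-1, 8988 and 9109 with acalabrutinib, and 9147 and 10572 with copanlisib. In HBL1 it was 3042 and 2715 CPM with DMSO, 3748 and 3639 with NGI-1, 3902 and 3840.1 with acalabrutinib, and 4359.5 and 4083 with copanlisib. All 12 compound libraries lay above the DMSO libraries of their line. The changes were 0.37 ± 0.07 (adjusted p = 4.6e-05), 0.29 ± 0.07 (0.000982) and 0.42 ± 0.07 (7.03e-06) in TMD8, and 0.36 ± 0.07 (0.000149), 0.43 ± 0.07 (1.21e-05) and 0.55 ± 0.07 (3.15e-08) in HBL1, in the order NGI-1, acalabrutinib, copanlisib. As linear folds they ran from 1.22 to 1.47.

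RPS27, a zinc-finger protein of the small subunit, had 936 and 951 CPM in TMD8 with DMSO at 24 h. It had 1245 and 1294 CPM with NGI-1, 1273 and 1256 with acalabrutinib, and 1248 and 1367 with copanlisib. In HBL1 the values were 1043 and 1015 CPM with DMSO, 1225 and 1249 with NGI-1, 1246 and 1335 with acalabrutinib, and 1415 and 1355 with copanlisib. The groups did not overlap in either line. The changes were 0.43 ± 0.07 (adjusted p = 5.32e-06), 0.42 ± 0.07 (6.14e-06) and 0.47 ± 0.07 (9.22e-07) in TMD8 and 0.27 ± 0.07 (0.00499), 0.33 ± 0.07 (0.000642) and 0.43 ± 0.07 (5.7e-06) in HBL1.

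The P stalk of the large subunit, which recruits translation factors, is made of RPLP0 and of dimers of RPLP1 and RPLP2, with RPL12 at its base. RPLP0 had 3320 and 3339 CPM in TMD8 with DMSO, 4224 and 4165 with NGI-1, 4169.9 and 3848 with acalabrutinib, and 4260.4 and 4233 with copanlisib. It rose by 0.33 ± 0.07 (adjusted p = 0.00015), 0.27 ± 0.07 (0.00194) and 0.35 ± 0.07 (7.36e-05). In HBL1 RPLP0 had 3475 and 3147 CPM with DMSO, 4018 and 3616 with NGI-1, 4157 and 3730.4 with acalabrutinib, and 4327 and 3834 with copanlisib, and all compound libraries lay above the DMSO libraries. Its HBL1 changes were 0.21 ± 0.07 (0.0271), 0.25 ± 0.07 (0.00623) and 0.30 ± 0.07 (0.000558). They were lost without single libraries: NGI-1 without NGI-1 replicate 1 (0.35) or DMSO replicate 2 (0.29), acalabrutinib without acalabrutinib replicate 1 (0.17) or DMSO replicate 2 (0.13), and copanlisib without copanlisib replicate 1 (0.055).

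RPL12 had 891 and 879.5 CPM in HBL1 with DMSO, 1093 and 1077 with NGI-1, 1087 and 1080.1 with acalabrutinib, and 1259 and 1186 with copanlisib. It rose by 0.29 ± 0.07 (adjusted p = 0.000885), 0.29 ± 0.07 (0.00104) and 0.47 ± 0.07 (3.18e-07), with no overlap between groups. In TMD8 its changes were 0.20 ± 0.07 with NGI-1 (0.0146), 0.11 ± 0.07 with acalabrutinib (0.223) and 0.20 ± 0.07 with copanlisib (0.0169). The first was lost without NGI-1 replicate 1 (0.13) or DMSO replicate 2 (0.17) and with no filter on low counts (0.084), and the last without copanlisib replicate 2 (0.13) or DMSO replicate 2 (0.17) and with no filter (0.066).

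RPLP1 and RPLP2 differed in which comparisons called them. RPLP1 in HBL1 had 1552 and 1443 CPM with DMSO, 1630.4 and 1615 with NGI-1, 1973 and 1859 with acalabrutinib, and 2081 and 2002 with copanlisib. It rose with acalabrutinib (0.36 ± 0.08, adjusted p = 0.00148) and copanlisib (0.45 ± 0.08, 3.85e-05), and its NGI-1 change was 0.12 ± 0.08 (0.365). In TMD8 RPLP1 was called with all 3 compounds, at 0.23, 0.26 and 0.25, each call lost without DMSO replicate 1 (0.32, 0.20 and 0.22) and each also without at least 1 compound library (0.051 to 0.21). RPLP2 was called with copanlisib in HBL1 alone, where it had 707 and 699 CPM against 572 and 532 with DMSO (0.35 ± 0.08, 0.000475). Its other 5 changes ran from 0.0033 to 0.17, with adjusted p from 0.132 to 1.0.

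RPL3 and RPL10 reach towards the peptidyl transferase centre. RPL10 is recurrently mutated in T cell leukaemia, and RPL3 is known for its effect on how ribosomes keep the reading frame. RPL3 in TMD8 had 2335 and 2252 CPM with DMSO, 3061 and 2836 with NGI-1, 2913 and 2511 with acalabrutinib, and 3038 and 2859 with copanlisib. In HBL1 RPL3 had 2585 and 2404 CPM with DMSO, 3351 and 2888 with NGI-1, 3494.5 and 2922 with acalabrutinib, and 3780.2 and 3234 with copanlisib. Groups did not overlap, with replicate 1 above replicate 2 in each of these 8 groups. The changes of RPL3 were 0.36, 0.24 and 0.36 (SE 0.0844, 0.0843 and 0.0844, adjusted p = 0.00074, 0.0241 and 0.000756) in TMD8 and 0.32, 0.36 and 0.49 (SE 0.0844, 0.0844 and 0.0845, adjusted p = 0.00435, 0.00143 and 1.14e-05) in HBL1. Without 1 library RPL3 lost its call with NGI-1 in HBL1 (0.17 without NGI-1 replicate 1, 0.069 without DMSO replicate 2), with acalabrutinib in TMD8 (0.36 without acalabrutinib replicate 1, 0.14 without DMSO replicate 2, 0.062 without DMSO replicate 1) and with acalabrutinib in HBL1 (0.13 without acalabrutinib replicate 1).

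RPL10 had 1560.3 and 1529 CPM in TMD8 with DMSO, and its highest values were with NGI-1, at 2023 and 2018 CPM. Acalabrutinib gave 1872 and 1711 CPM and copanlisib 1908 and 1864. The changes were 0.39 ± 0.07 (adjusted p = 1.87e-05), 0.21 ± 0.07 (0.0141) and 0.29 ± 0.07 (0.00101). In HBL1 RPL10 changed by 0.29 ± 0.07 (0.00175), 0.24 ± 0.07 (0.00985) and 0.31 ± 0.07 (0.000457). The acalabrutinib calls were lost without acalabrutinib replicate 1 (0.18 in TMD8, 0.23 in HBL1) or DMSO replicate 2 (0.088 and 0.17), and in TMD8 with no filter (0.051), and the NGI-1 call in HBL1 without DMSO replicate 2 (0.067).

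RPL5 and RPL11 form with the 5S RNA the particle that can bind MDM2 and hold it from p53 when ribosome assembly fails. RPL11 had 618 and 581 CPM in TMD8 with DMSO against 726 and 723 with NGI-1, 708 and 695 with acalabrutinib, and 742 and 753 with copanlisib, and it rose by 0.27 (adjusted p = 0.0027), 0.23 (0.013) and 0.32 (0.000529). Only its copanlisib change in TMD8 was called in every other fit. The NGI-1 call of RPL11 in TMD8 was lost without DMSO replicate 2 (0.058), and the acalabrutinib call without DMSO replicate 2 (0.14) or acalabrutinib replicate 1 (0.061) and with no filter (0.053). In HBL1 RPL11 was called with acalabrutinib (0.21, adjusted p = 0.0338, lost without any 1 of the 4 libraries at 0.089 to 0.17) and copanlisib (0.29, adjusted p = 0.00125, 0.069 without copanlisib replicate 1), and its NGI-1 change was 0.19 (0.0586). RPL5 was called with copanlisib in TMD8 (0.20, adjusted p = 0.037) and with acalabrutinib (0.24, 0.021) and copanlisib (0.29, 0.0023) in HBL1. Its TMD8 call was lost without copanlisib replicate 2 (0.68), DMSO replicate 1 (0.17) or DMSO replicate 2 (0.089), and its acalabrutinib call without acalabrutinib replicate 2 (0.18), DMSO replicate 2 (0.14) or DMSO replicate 1 (0.057). RPL22, a large-subunit gene that is often lost or mutated in lymphoid tumours, was called in 5 of 6 comparisons, at 0.22 to 0.33, and its TMD8 NGI-1 change was 0.20 (0.0508). All of these RPL22 calls except copanlisib in HBL1 were lost without DMSO replicate 2 of their line (0.095 to 0.25). Those with NGI-1 and acalabrutinib were also lost without acalabrutinib replicate 1 in TMD8 (0.15) and without any other of the HBL1 libraries (0.065 to 0.17), and the HBL1 copanlisib call held in every fit.

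On the small subunit, RPS4X, encoded on the X chromosome, had 1266 and 1246 CPM in TMD8 with DMSO, 1583 and 1497 with NGI-1, 1596 and 1535 with acalabrutinib, and 1612 and 1682 with copanlisib. It rose by 0.29 (adjusted p = 0.0087), 0.32 (0.00452) and 0.39 (0.000559), the first lost without NGI-1 replicate 1 (0.09) or DMSO replicate 2 (0.06). In HBL1 RPS4X was called with copanlisib alone (0.32, 0.00386, lost without copanlisib replicate 1 at 0.11 or DMSO replicate 2 at 0.09).

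RPS6, the substrate of the S6 kinases, was called with acalabrutinib and copanlisib in both lines but not with NGI-1. In TMD8 it had 3321 and 3734.5 CPM with DMSO, 3737 and 3836 with NGI-1, 3793 and 4750.1 with acalabrutinib, and 3767 and 4864 with copanlisib. The changes of RPS6 were 0.10 (adjusted p = 0.47), 0.28 (0.0265) and 0.29 (0.0191) in TMD8 and 0.17 (0.222), 0.28 (0.0369) and 0.32 (0.00924) in HBL1. Each of the 4 calls of RPS6 was lost without 1 library: in TMD8 without acalabrutinib or copanlisib replicate 2 (0.56 and 0.59) or DMSO replicate 1 (0.26 and 0.22), and in HBL1 without acalabrutinib replicate 2 (0.32), copanlisib replicate 1 (0.064) or DMSO replicate 2 (0.21 and 0.089), with acalabrutinib also without DMSO replicate 1 (0.086). The difference between NGI-1 and the other compounds was tested directly for all members and is given further on.

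RPS3 and RPSA face the mRNA entry and exit sides of the small subunit. RPS3 was called with all 3 compounds in TMD8 and with copanlisib in HBL1 (0.21 to 0.33). The TMD8 calls of RPS3 were lost without replicate 2 of the compound (0.17, 0.27 and 0.11), with NGI-1 and acalabrutinib also without DMSO replicate 1 (0.16 each), and the HBL1 call without any 1 of the 4 libraries (0.068 to 0.21). RPSA was called with copanlisib in HBL1 alone (0.26, adjusted p = 0.00424, and 0.058 without copanlisib replicate 1), where it had 1981 and 1894 CPM against 1647 and 1598 with DMSO. RPS19, the gene most often mutated in Diamond-Blackfan anaemia, was called with NGI-1 in TMD8 (0.20, 0.0482) and with acalabrutinib (0.23, 0.0342) and copanlisib (0.33, 0.00118) in HBL1. The first of these calls of RPS19 was lost without any 1 of the 4 libraries (0.083 to 0.22), the next likewise (0.053 to 0.23), and the copanlisib call held throughout. RPS14, whose loss marks the 5q- syndrome, was called in none, at 0.06 to 0.21 with SE 0.12 each.

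Several small-subunit genes varied more between replicates than the rest. RPS3A in TMD8 had 2313 and 2773 CPM with DMSO and 2661 and 4010.0 with acalabrutinib, a change of 0.39 ± 0.18 (adjusted p = 0.112). RPS15A had 804 and 962 CPM with DMSO and 866 and 1362 with copanlisib, a change of 0.34 ± 0.20 (0.214). Replicate 2 was the higher of the pair in each of these 4 groups. RPS27A, which encodes ubiquitin fused to a ribosomal protein, changed by -0.0018 to 0.24 with SE 0.13 and was called in none. Reads of ribosomal protein genes can also match their many processed pseudogenes. The 24 pseudogene rows of the table held 0.0145% to 0.0297% of the reads of a library, and how the counting treated reads that fit several places was not given in the sources used here.

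**Figure D4:**
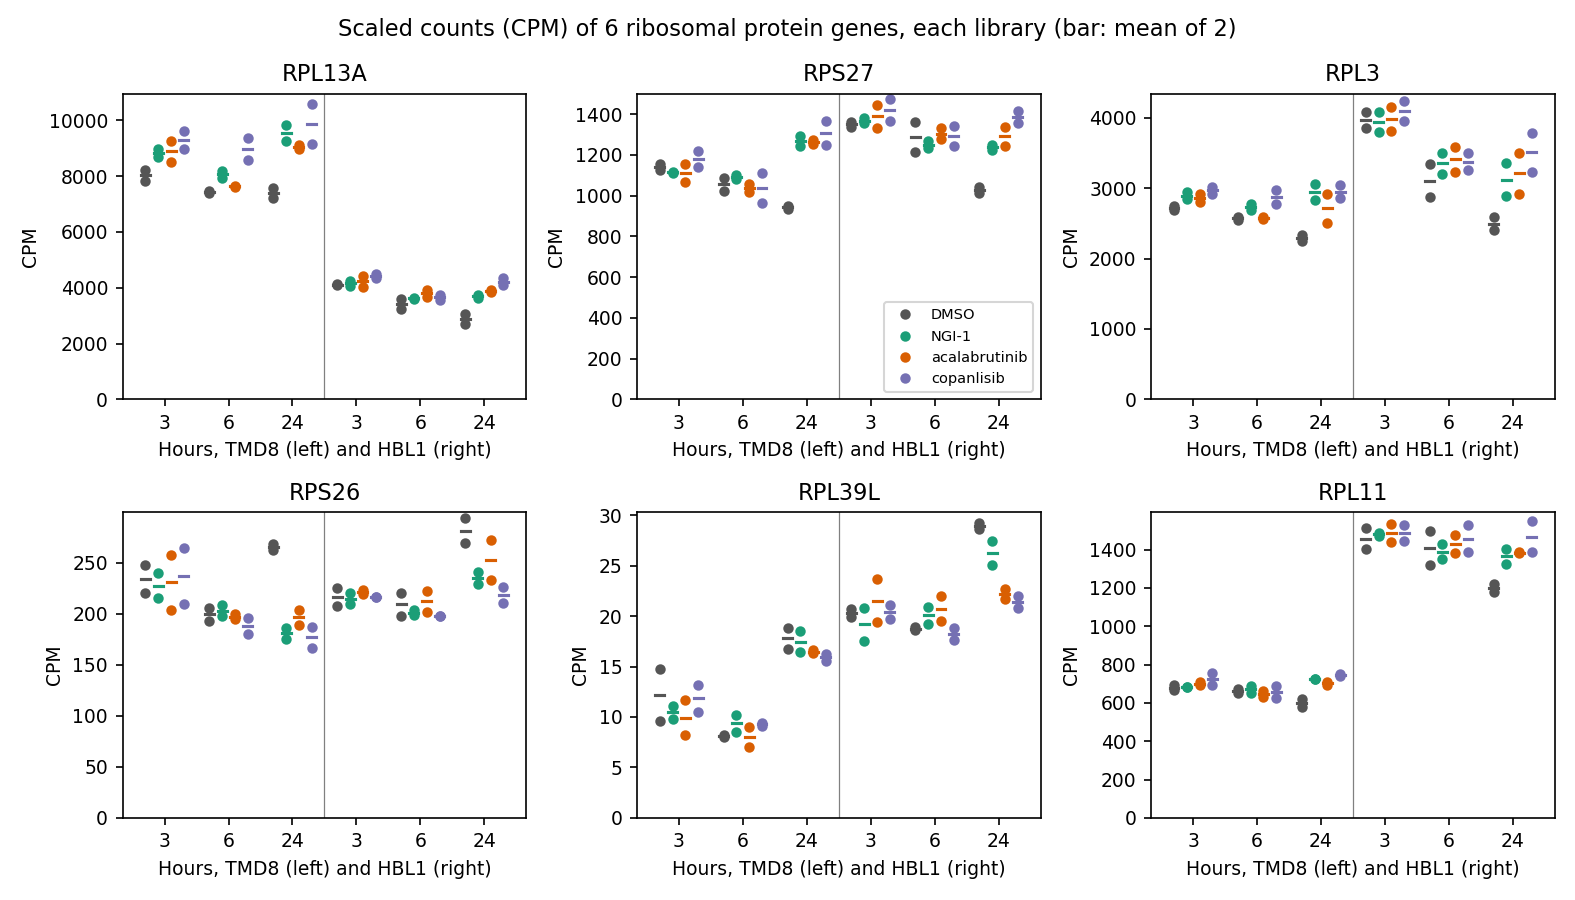
Scaled level (CPM, y axis from 0) of RPL13A, RPS27, RPL3, RPS26, RPL39L and RPL11 in each of the 48 libraries, by hours of treatment (x axis), with TMD8 left and HBL1 right of the vertical line. Points are libraries and bars means of 2. In TMD8 the DMSO libraries at 24 h are the lowest for RPS27 (936 and 951 CPM), and the DMSO group at 24 h has the highest mean for RPS26 in both lines.

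RPS26, which contacts the mRNA just upstream of the start codon and can leave mature ribosomes, went the other way. In TMD8 at 24 h it had 263 and 269 CPM with DMSO, 176 and 186 with NGI-1, 189 and 204 with acalabrutinib, and 167 and 188 with copanlisib. All 6 compound libraries lay below both DMSO libraries. RPS26 fell by 0.55 ± 0.10 on the log2 scale (adjusted p = 1.18e-05), by 0.43 ± 0.10 (0.00036) and by 0.59 ± 0.10 (4.37e-06), and these calls held in every fit. In HBL1 it had 294 and 269.8 CPM with DMSO, 229 and 241 with NGI-1, 234 and 273 with acalabrutinib, and 210.3 and 226 with copanlisib. The acalabrutinib group overlapped DMSO (-0.15 ± 0.09, 0.284), and the other 2 lay below it. The copanlisib change of RPS26 in HBL1 was -0.37 ± 0.09 (0.00215, and 0.055 without DMSO replicate 1). Its NGI-1 change was -0.26 ± 0.09 (0.0455) and was lost without replicate 1 of DMSO (0.32) or either library of NGI-1 (0.23 and 0.097), with RLE size factors (0.063), with DESeq2 (0.062) and with no filter (0.069).

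RPL39L, a paralog of the exit tunnel protein RPL39 that is best known from the testis, had 28.6 and 29.2 CPM in HBL1 with DMSO, 25.1 and 27.4 with NGI-1, 21.7 and 22.7 with acalabrutinib, and 22.0 and 20.8 with copanlisib. The compound libraries lay below both DMSO libraries. Only the copanlisib change was called (-0.43 ± 0.14, adjusted p = 0.0188), and it was lost without any 1 of the 4 libraries (0.059 to 0.11) and with no filter (0.062). RPL39 itself had 306 and 327 CPM with DMSO and 383 and 425 with copanlisib in HBL1 (0.35 ± 0.12, 0.0293, lost without DMSO replicate 1 at 0.19, copanlisib replicate 2 at 0.21 or DMSO replicate 2 at 0.059). RPS27L, a p53-inducible paralog of RPS27, was called in none of the 6 comparisons, at -0.23 to 0.16 with SE of 0.136 to 0.139. In TMD8 it had 55.8 and 55.8 CPM with DMSO and 47.3 and 48.2 with NGI-1, where RPS27 rose.

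At 3 and 6 h almost no ribosomal protein gene was called. By edgeR the count was 0 of 79 in 11 of the 12 comparisons. At 3 h the percentages of all genes called in either direction were 0.735 and 0.353 with NGI-1, 0.339 and 0.223 with acalabrutinib, and 1.71 and 2.22 with copanlisib, in TMD8 and HBL1. The members at an unadjusted p under 0.05 then numbered 2 and 0, 2 and 0, and 7 and 0. These were 2.53% and 0%, 2.53% and 0%, and 8.86% and 0% of the 79. Over all genes the shares were 7.51% and 5.36%, 4.98% and 5.22%, and 11.2% and 11.8%. DESeq2 called 0 members in each. At 6 h the percentages of all genes called were 4.25 and 1.15 with NGI-1, 4.5 and 5.61 with acalabrutinib, and 14.4 and 9.54 with copanlisib. The members at an unadjusted p under 0.05 numbered 0 and 2, 0 and 13, and 3 and 1. Over all genes the shares under 0.05 were 15.6% and 9.55%, 15.2% and 17.6%, and 25.9% and 22.1%. The share of members was below that of all genes in each case. DESeq2 called 1 with acalabrutinib in HBL1, 1 with copanlisib in TMD8 and 0 in the other 4. The 1 call by edgeR was RPL13A with copanlisib in TMD8 at 6 h, where it had 9352 and 8585 CPM against 7473 and 7385 with DMSO (0.27 ± 0.07, adjusted p = 0.00478). It was lost without copanlisib replicate 1 (0.12), and without copanlisib replicate 2 the count was 2. The medians over the 79 genes at these times ran from -0.0245 to 0.0739.

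Whether the effect itself grew was tested as the change at 24 h minus the change at 3 h. With NGI-1 in TMD8, 5 members passed (12.0% of all genes did): RPS27 at 0.46 (adjusted p = 0.0011), RPL37 at 0.35 (0.033), RPL10 at 0.285 (0.045), RPLP0 at 0.28 (0.049) and RPS26 at -0.515 (0.0076). In HBL1 with NGI-1 it was 1 (4.8%), RPL13A at 0.35 (0.03). With acalabrutinib 2 passed in TMD8 (14.4%), RPS27 at 0.46 (0.00094) and RPS26 at -0.415 (0.03), and 1 in HBL1 (3.96%), RPL13A at 0.39 (0.015). With copanlisib 2 passed in TMD8 (10.9%), RPS26 at -0.61 (0.0017) and RPS27 at 0.42 (0.0033). In HBL1 with copanlisib 11 passed, all positive (9.31%), led by RPL13A at 0.45 (0.0017), RPL3 at 0.44 (0.011), RPLP1 at 0.42 (0.015), RPL27A at 0.398 (0.029) and RPL12 at 0.38 (0.0052). In TMD8 RPS27 passed with all 3 compounds in every fit, and in HBL1 RPL12 and RPL13A did so with copanlisib. The others were lost without at least 1 library, and 11 became 2 without HBL1 24 h copanlisib replicate 1 or 24 h DMSO replicate 2, 5 without 3 h copanlisib replicate 2 and 7 without DMSO replicate 1 of 3 h or of 24 h. In TMD8 the 5 NGI-1 calls became 1 without 3 h NGI-1 replicate 2, 3 without 24 h DMSO replicate 2 and 2 without any other of the 8 libraries. The HBL1 call with NGI-1 was lost without any of the 8 libraries except 24 h DMSO replicate 1 (0.054 to 0.16), and the RPL13A call with acalabrutinib in HBL1 without 24 h acalabrutinib replicate 1 (0.069), 24 h DMSO replicate 2 (0.10) or replicate 2 of 3 h DMSO (0.054) or 3 h acalabrutinib (0.09). In TMD8 RPS26 lost its NGI-1 call without 3 h DMSO replicate 1 (0.072) or 3 h NGI-1 replicate 2 (0.071), its acalabrutinib call without any of 5 libraries (0.059 to 0.34) and its copanlisib call without 3 h copanlisib replicate 2 (0.068), while 6 members passed without 24 h copanlisib replicate 1. In most of these comparisons the share of members called was below that of all genes, and the exception was copanlisib in HBL1 (13.9% of the 79).

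The effect of a compound at 24 h was not called different between the lines for any member. edgeR called 0 of 79 for NGI-1, acalabrutinib and copanlisib, beside 2.57%, 4.19% and 4.22% of all genes, and DESeq2 called 0, 0 and 2. Before adjustment 1, 3 and 10 members were under 0.05 (1.27%, 3.8% and 12.7%, beside 13.2%, 15.8% and 16.4% of all genes). Medians of TMD8 minus HBL1 were -0.0223, -0.0565 and -0.104. The members nearest to a call were RPL12 (-0.27 ± 0.09, adjusted p = 0.102), RPLP2 (-0.31, 0.108) and RPS15 (-0.39, 0.115) with copanlisib. Without TMD8 24 h DMSO replicate 1 or copanlisib replicate 2, 1 member was called. RPS15, near the decoding centre, had 1280.1 and 1562 CPM in TMD8 with DMSO and 1297 and 1556 with copanlisib. In HBL1 RPS15 had 255 and 227 CPM with DMSO and 313 and 320.4 with copanlisib (0.39, 0.00201), a call lost without DMSO replicate 2 (0.055).

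Compounds were also set against each other at 24 h, where no DMSO library enters. In TMD8 edgeR and DESeq2 called 0 members for NGI-1 against acalabrutinib (1.3% of all genes by edgeR), NGI-1 against copanlisib (1.35%) and copanlisib against acalabrutinib (0.461%). Members at an unadjusted p under 0.05 numbered 3, 0 and 0 (3.8%, 0% and 0%, beside 8.58%, 8.41% and 7.02% of all genes). In HBL1, for NGI-1 against acalabrutinib and copanlisib against acalabrutinib, 4 and 6 members were under 0.05 before adjustment. These were 5.06% and 7.59%, beside 13.3% and 7.3% of all genes. DESeq2 called 0 in both, and edgeR called 0, beside 3.25% and 0.101% of all genes. For NGI-1 against copanlisib in HBL1 it called 1 (4.93%), RPLP1, lower with NGI-1 by -0.33 ± 0.08 (adjusted p = 0.00833), lost without copanlisib replicate 1 (0.11) or either NGI-1 library (0.079 each). Here 76 of 79 changes were negative, with a median of -0.15 beside 0.0111 over all genes. Before adjustment 30 of the 79 members were under 0.05, beside 16.1% of all genes. DESeq2 called 10 members, and the share of all genes that it called is not given here. For RPS6, called with acalabrutinib and copanlisib but not NGI-1, the direct differences were -0.17 (NGI-1 minus acalabrutinib, adjusted p = 0.68) and -0.19 (NGI-1 minus copanlisib, 0.622) in TMD8, and -0.11 (0.728) and -0.15 (0.497) in HBL1.

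With DMSO alone, 58 ribosomal protein genes in HBL1 and 18 in TMD8 were called lower at 24 h than at 3 h. In HBL1 58 were called lower and 2 higher (73.4% and 2.53% of the 79, beside 19.0% and 20.7% of all genes), with a median change of -0.31 beside 0.0111 over all genes. In TMD8 18 were lower and 1 higher (22.8% and 1.27%, beside 15.9% and 16.9%), with a median of -0.10 beside 0.0329. The DMSO libraries at 24 h are also the controls of the 24 h comparisons, so the 2 patterns share them and are not independent. RPL3 in HBL1 had 4081 and 3857 CPM at 3 h, 3340.2 and 2874 at 6 h, and 2585 and 2404 at 24 h. It fell by 0.67 ± 0.08 on the log2 scale (adjusted p = 1.33e-08), the largest called fall among the members. RPL3 in TMD8 had 2753 and 2694 CPM at 3 h and 2335 and 2252 at 24 h (-0.25 ± 0.08, 0.0199, lost without 3 h DMSO replicate 1 at 0.11, 24 h replicate 2 at 0.13 or 3 h replicate 2 at 0.055). The P stalk genes RPLP0 (-0.47, 2.42e-07) and RPL12 (-0.47, 1.33e-07) and RPL13A (-0.52, 6.15e-08) and RPL10 (-0.46, 5.98e-07) also fell in HBL1. In TMD8 RPLP0 (-0.24, 0.00558), RPL12 (-0.29, 0.000541) and RPS27 (-0.27, 0.00223) fell in every fit, and RPL13A changed by -0.12 (0.191). The falls held in every fit for 38 members in HBL1 and 5 in TMD8, where the 19 calls became 8 without 24 h DMSO replicate 2, 9 without 3 h DMSO replicate 2 and 10 without 3 h DMSO replicate 1.

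In DMSO over time RPL39L was the 1 member called higher in TMD8, and RPL39L and RPS26 were the 2 in HBL1. RPL39L was not called lower with any compound in TMD8 (adjusted p = 0.938, 0.635 and 0.465). It had 9.56 and 14.7 CPM at 3 h and 16.8 and 18.8 at 24 h in TMD8 (0.58 ± 0.16, adjusted p = 0.00519, lost without 3 h replicate 1 at 0.35 or 24 h replicate 2 at 0.072). In HBL1 RPL39L had 19.9 and 20.7 CPM at 3 h and 28.6 and 29.2 at 24 h (0.51 ± 0.14, 0.00408, and 0.074 without 3 h replicate 1). RPS26 in HBL1 had 208 and 226 CPM at 3 h, 220.6 and 198 at 6 h, and 294 and 269.8 at 24 h (0.38 ± 0.09, 0.00124, and 0.095 without 3 h replicate 1). In TMD8 RPS26 had 220.2 and 248 CPM at 3 h, 193 and 206 at 6 h, and 263 and 269 at 24 h (0.18 ± 0.09, 0.137).

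Between the lines the largest called differences were larger than any called change with a compound at 24 h, although fewer members were called than with copanlisib in HBL1 (45 against 62). With DMSO at 24 h, 34 members were higher and 11 lower in TMD8 than in HBL1 (43.0% and 13.9% of the 79, beside 32.1% and 33.8% of all genes), with a median of 0.15 beside -0.025. RPS15 had 1280.1 and 1562 CPM in TMD8 and 255 and 227 in HBL1, a difference of 2.56 ± 0.10 (adjusted p = 3.78e-25). RPL13A (1.36, 6.01e-22), RPL36A (1.34, 1e-18) and RPL28 (1.20, 5.22e-14) were also higher in TMD8. RPS25, needed for some internal ribosome entry sites, was lower in TMD8, with 414 and 409 CPM against 963 and 995 (-1.25 ± 0.09, 1.81e-17), and so was RPL11 at 618 and 581 against 1221 and 1177 (-1.0 ± 0.07, 9.1e-17). Of the 12 members on chromosome 19, 10 were higher and 0 lower in TMD8, with a median of 1.05, whereas the 980 tested genes of that chromosome had a median of 0.118 and 40.7% higher. The 67 members elsewhere had 24 higher and 11 lower, with a median of 0.0603. Chromosomes were looked up by gene ID in RefSeq, and this grouping was made after the values were seen.

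Several lists of genes near the ribosome but outside the family had negative medians. The mitochondrial ribosomal protein genes, 76 of them, had medians of -0.27, -0.28, -0.24, -0.19, -0.25 and -0.30 at 24 h with NGI-1, acalabrutinib and copanlisib, TMD8 before HBL1 each time. They were called lower in 36, 41, 29, 20, 37 and 44 cases (47.4%, 53.9%, 38.2%, 26.3%, 48.7% and 57.9%, beside 14.8%, 11.4%, 15.5%, 11.4%, 16.0% and 17.7% of all genes), and 1 was called higher, with acalabrutinib in TMD8. With DMSO from 3 to 24 h, 37 were called higher and 1 lower in HBL1 (48.7% and 1.32%, beside 20.7% and 19.0% of all genes). In TMD8 it was 15 and 1 (19.7% and 1.32%), and the share called higher was near the 16.9% of all genes. The medians were 0.21 and 0.14. The list of 27 ribosome assembly factors had medians of -0.60, -0.50, -0.56, -0.34, -0.48 and -0.47, with 24, 24, 23, 17, 22 and 23 called lower (63% to 88.9%, beside the same 11.4% to 17.7% of all genes). NOP16 (-0.52 to -0.90), PES1 (-0.53 to -0.70), TCOF1, which helps transcribe ribosomal DNA (-0.63 to -0.80), and NOP56 (-0.39 to -0.56), a core protein of methylating snoRNPs, fell in all 6 comparisons and under every setting. Chaperones dedicated to ribosomal proteins were also called lower, 2 to 4 of 7 in each comparison (28.6% to 57.1%), with LTV1 (-0.49 to -0.61) and BCCIP (-0.34 to -0.53) lower throughout. The medians of the cytosolic ribosomal proteins and of the genes that assemble them thus lay on opposite sides of 0 at 24 h.

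**Figure D5:**
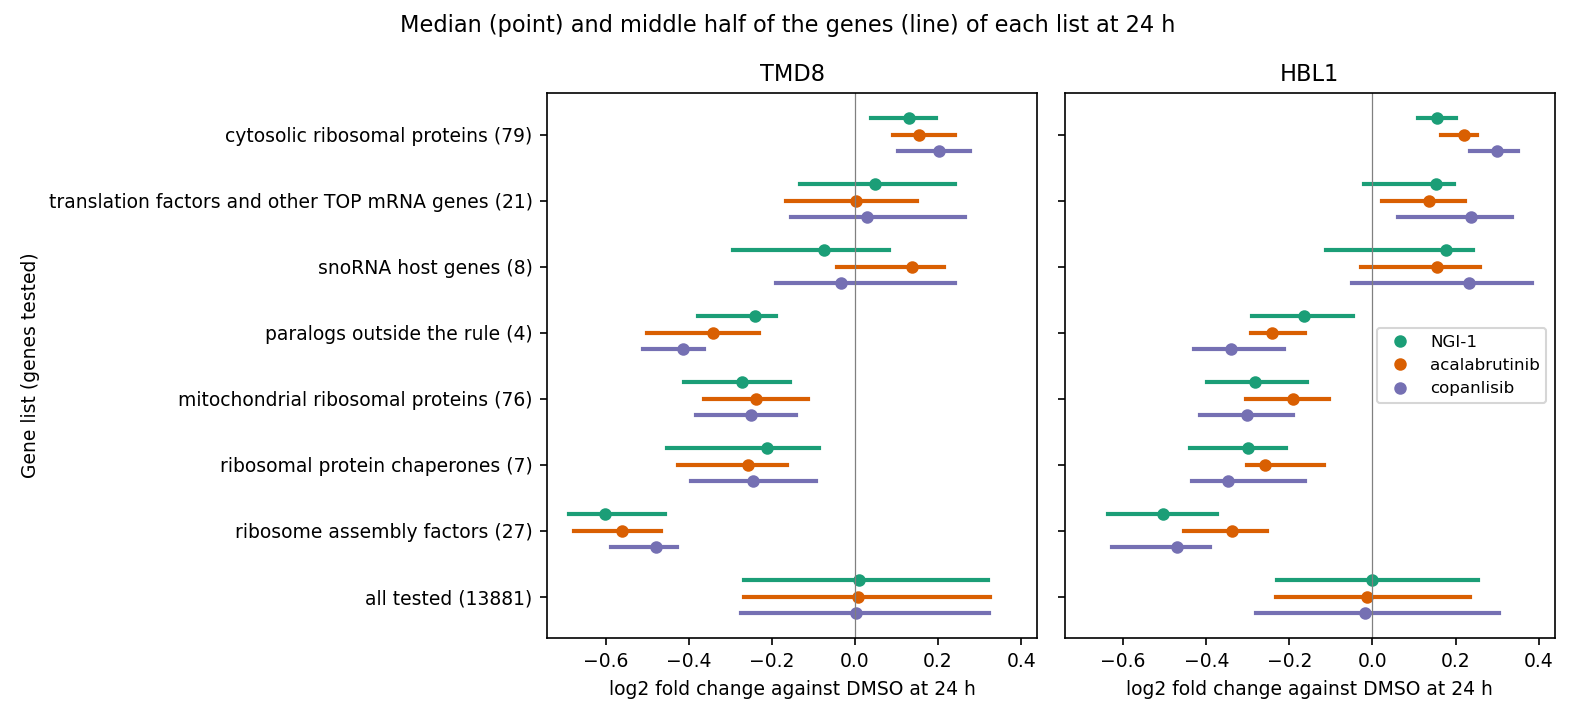
Log2 fold change against DMSO at 24 h (x axis) of 7 gene lists and of all genes tested (y axis, number of genes in brackets), in TMD8 and HBL1. Points are medians and lines the 25th to 75th percentile of each list. Cytosolic ribosomal proteins lie right of 0 with medians of 0.13 to 0.30, mitochondrial ribosomal proteins and assembly factors left of 0 with medians of -0.19 to -0.60.

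Paralogs and other ribosome genes that the naming rule leaves out are set beside their relatives here. RPL22L1, a paralog of RPL22, had 55.1 and 57.3 CPM in TMD8 with DMSO, 35.2 and 35.7 with NGI-1, 29.3 and 40.5 with acalabrutinib, and 32.4 and 36.9 with copanlisib. It fell by 0.66, 0.69 and 0.70 on the log2 scale (adjusted p = 4.21e-05, 2.1e-05 and 1.69e-05), while RPL22 did not fall in any of the 6 comparisons with DMSO at 24 h. In HBL1 the changes of RPL22L1 were -0.06 to -0.27 and not called (0.791, 0.103 and 0.0878). RPL7L1 was lower in all 6 (-0.28 to -0.47), lost with NGI-1 in TMD8 without DMSO replicate 1 (0.17) or NGI-1 replicate 2 (0.13) and with copanlisib in TMD8 without copanlisib replicate 2 (0.072). Of the other cytosolic ribosome genes, FAU (-0.12 to 0.07) was not called, and GNB2L1 was called with copanlisib alone (0.19 in TMD8, adjusted p = 0.0421, and 0.28 in HBL1, 0.00328), both lost without copanlisib replicate 1 (0.20 and 0.13) or DMSO replicate 2 (0.32 and 0.073), and the first also without copanlisib replicate 2 (0.054), with TMM without the family (0.052) and with no filter (0.065).

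Other genes whose mRNAs carry the TOP motif were mixed. Of 21, the counts higher and lower were 5 and 4 with NGI-1 in TMD8, 3 and 1 in HBL1, 4 and 5 and then 5 and 2 with acalabrutinib, and 7 and 5 and then 11 and 3 with copanlisib. With NGI-1 in TMD8 these were 23.8% and 19.0%, near the 15.6% and 14.8% of all genes, and with copanlisib in HBL1 52.4% and 14.3%, beside 12.5% and 17.7%. EEF1A1, the elongation factor that brings aminoacyl-tRNA, had 12524 and 12225 CPM in TMD8 with DMSO against 16115 and 15798 with NGI-1, 15184 and 14295 with acalabrutinib, and 15890.0 and 15531 with copanlisib. It rose in all 6 comparisons (0.25 to 0.42, adjusted p from 2.74e-06 to 0.00249) in every fit. NPM1, a nucleolar chaperone, fell in all 6 (-0.24 to -0.68), in HBL1 lost without DMSO replicate 1 with NGI-1 (0.10) and acalabrutinib (0.28), and with acalabrutinib also without acalabrutinib replicate 1 (0.12) and with no filter (0.058). EEF2 was called with acalabrutinib (0.26, lost without acalabrutinib replicate 1 at 0.45 or DMSO replicate 2 at 0.27) and copanlisib (0.38) in HBL1 and not in TMD8 (-0.0208 to 0.19). MYC had 218 and 185 CPM in TMD8 with DMSO, 104 and 82.5 with NGI-1, 93.2 and 72.7 with acalabrutinib, and 122 and 82.8 with copanlisib. It fell by 1.11, 1.28 and 0.97 on the log2 scale (adjusted p = 4.55e-06, 4.84e-07 and 2.48e-05). In HBL1 MYC had 338 and 303 CPM with DMSO, 190.2 and 155 with NGI-1, 247 and 209 with acalabrutinib, and 239 and 202 with copanlisib, and fell by 0.90, 0.49 and 0.54 (0.000113, 0.0231 and 0.00799), the last 2 lost without DMSO replicate 1 (0.19 and 0.094) or replicate 2 of the compound (0.21 and 0.11). Of 8 snoRNA host genes, 1, 2 and 4 were called higher in HBL1 (12.5%, 25% and 50.0%, beside 7.87%, 7.53% and 12.5% of all genes), and the medians in TMD8 were -0.0747, 0.14 and -0.0344. Of 16 genes of the mTORC1 arm, 2 to 4 were called higher and 3 to 6 lower in each comparison (12.5% to 25% and 18.8% to 37.5%, beside 7.53% to 15.6% and 11.4% to 17.7% of all genes). EIF4EBP1, the inhibitor of the cap-binding protein, was lower in TMD8 (-0.81, -0.97 and -0.97) and not called in HBL1 (-0.13 to -0.25). RPS6KB1, an S6 kinase gene, was called in none (-0.12 to 0.02).

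The start sequence and the length of the genes were set beside their changes as a description. The 46 members with the pyrimidine start had medians of 0.15, 0.16, 0.16, 0.21, 0.20 and 0.30 at 24 h, and the 17 without had 0.10, 0.15, 0.12, 0.23, 0.16 and 0.31, in the order NGI-1, acalabrutinib, copanlisib, TMD8 before HBL1. Genes called higher numbered 36 of 46 and 12 of 17 with copanlisib in HBL1, and 15 of 46 and 4 of 17 with NGI-1 in TMD8. RPL3, called higher in all 6 comparisons, and RPS26, called lower in 5, were both among the 17. The 4 members on chromosome 8 were in neither group, among them RPL30, also called higher in all 6. Length was taken from the longest GENCODE transcript of each gene name, which need not be the main mRNA. By this measure 57 of 79 ribosomal protein genes were at or under the 25th percentile of the 11131 tested genes with a known length. The other genes of that length had medians of -0.0529 to -0.0872 at 24 h against DMSO and of 0.0803 and 0.0677 in DMSO over time, the opposite sign to the members in each case.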

How the data were processed

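RNA was measured in 48 libraries, 2 for each of 24 groups of line, compound and time. The authors deposited raw read counts per gene in 1 table, counted with HTSeq on hg19 per the submitters' processing notes. The aligner, tool versions, strand setting and handling of reads that fit several places are not given in the sources used here. Groups came from the sample labels, and 0 columns were left without a sample. The labels do not say that replicates were separate cultures, so p-values measure only how far these libraries spread, and that spread may be technical. Between replicates the chi-square for each degree of freedom was 2.44 to 8.16 over 24 pairs, so none was a repeated read of a library. Rows without a gene ID (3449, with 0.815% of reads) were kept in library sizes.

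TMM scaling used edgeR 4.0.16 under R 4.3.3, and 13881 of 25066 genes passed filterByExpr by group. One mean per group was fitted, with trended dispersions (common value 0.00539, a coefficient of variation of 7.34%) and robust quasi-likelihood F tests on 24 residual degrees of freedom. Adjusted p-values (Benjamini-Hochberg) are over all genes tested in a comparison, with a threshold of 0.05. CPM values are TMM-scaled and not divided by length, so they compare a gene between libraries and not genes with each other. The scripts were tested on simulated counts with known changes in the copanlisib group of TMD8 at 24 h. Of 50 genes per size, 22% were called at 1.25-fold, 84% at 1.5-fold, 100% at 2-fold and 98% at 0.5-fold. Among unchanged genes 12 were called. Alternatives were DESeq2 1.42.0, RLE size factors, TMM factors computed without the family, no filter on low counts, a replicate block, and each library of a comparison left out in turn, which leaves its group with 1 library assumed to vary like the others.

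The members, gene lists (written from memory, except the mitochondrial list, taken by name), naming rule and alternatives were chosen with earlier results of these data known. The rule named, per 24 h comparison, the 4 largest positive and 4 largest negative changes, the line differences with the smallest adjusted p, and 22 genes by function, giving 37 members, and 42 genes outside the family, 3 at most per list and compound besides those fixed by name. RPL30, RPL37 and RPS25, and the members in the time differences, were named after their values were seen. Counts and medians are over all 79 members, of which 2 are not reported here by name.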

Additional observations from a re-analysis of the deposited data

Results flagged for a closer look

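The results below stood out because the effect of a compound itself differed between 3 and 24 h by edgeR's test of that difference (24 h minus 3 h, log2 scale, adjusted p over all genes in brackets). Of all genes, 12.0% and 4.8% were called with NGI-1 (TMD8, HBL1), 14.4% and 3.96% with acalabrutinib, and 10.9% and 9.31% with copanlisib. The share of members called was below these except with copanlisib in HBL1 (13.9%). In TMD8, RPS27 grew by 0.461 with NGI-1 (0.0011), 0.459 with acalabrutinib (0.00094) and 0.421 with copanlisib (0.0033), and RPS26 by -0.515 (0.0076), -0.415 (0.03) and -0.607 (0.0017). With NGI-1 in TMD8 there were also RPL37 at 0.354 (0.033), RPL10 at 0.285 (0.045) and RPLP0 at 0.279 (0.049), and the calls of RPL10 and RPLP0 were lost when any 1 of the 8 libraries was left out (0.063 to 0.16 and 0.091 to 0.13). Of the TMD8 results, those of RPS27 kept their call in every other fit.

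In HBL1, RPL13A grew by 0.346 with NGI-1 (0.03), 0.386 with acalabrutinib (0.015) and 0.451 with copanlisib (0.0017). With copanlisib in HBL1 there were also RPL12 at 0.378 (0.0052), RPL3 at 0.444 (0.011), RPLP1 at 0.42 (0.015), RPS27 at 0.357 (0.015), RPL13 at 0.349 (0.028), RPL30 at 0.318 (0.028), RPL27A at 0.398 (0.029), RPL31 at 0.375 (0.029), RPL37A at 0.334 (0.032) and RPL36A at 0.36 (0.045). Of the 11 copanlisib results in HBL1, RPL12 and RPL13A kept their call in every other fit. Groups of 2 libraries allow no test for a library that stands apart.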

How the results depend on the processing

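No result changed its sign with a call in any alternative, and an uncalled value that stayed uncalled was counted as unchanged whatever its sign. No scaling moved the median of all genes by more than 0.0543. Among changes of named genes, calls were lost in 2 of 474 cases with RLE size factors, 11 with TMM without the family, 20 with no filter on low counts and 1 with DESeq2, and in 215 of 1896 with a library left out. The counts of members called at 24 h and in DMSO over time stayed within 1.5 times of the main value under DESeq2, RLE size factors, TMM without the family and no filter, except as listed here.

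With DESeq2 the members called were 1 for acalabrutinib in HBL1 at 6 h (0 by edgeR), 2 for the line difference of copanlisib (0), 10 for NGI-1 against copanlisib in HBL1 (1), and 5 and 25 for the time differences of acalabrutinib and copanlisib in HBL1 (1 and 11). RLE size factors gave 2 and 20 for those time differences and 4 for NGI-1 against copanlisib, and TMM without the family gave 3 for the time difference of NGI-1 in TMD8 (5). With no filter the counts were 1 and 1 for NGI-1 at 6 h (TMD8, HBL1), 1 and 3 for acalabrutinib at 6 h, 2 and 1 for copanlisib at 3 h, 2 for copanlisib at 6 h in TMD8, 1 for each line difference, 3, 4, 6, 4 and 29 for the time differences of NGI-1 in HBL1, acalabrutinib in TMD8 and HBL1 and copanlisib in TMD8 and HBL1, and 2 and 2 (TMD8) and 2 and 6 (HBL1) for NGI-1 against acalabrutinib and copanlisib. The share of higher calls moved by more than 10 percentage points where there were few calls, as in the time difference of NGI-1 in TMD8 (4 higher and 1 lower, with no filter 2 and 2).

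The fit with the replicate number as a block gave more calls. At 24 h it called 43 and 49 members with NGI-1 (TMD8, HBL1), 53 and 69 with acalabrutinib and 55 and 74 with copanlisib. For none of the block counts is the share of all genes called by the same fit given here. They therefore cannot show a gain particular to the members. Earlier, the block gave 4 for NGI-1 at 3 h in TMD8, 1 and 4 at 6 h, 2 and 19 for acalabrutinib at 3 h in TMD8 and 6 h in HBL1, and 8, 1, 7 and 4 for copanlisib at 3 h (TMD8, HBL1) and 6 h (TMD8, HBL1). It gave 4, 8 and 17 for the line differences, 27, 26, 32, 33, 24 and 61 for the time differences of NGI-1, acalabrutinib and copanlisib (TMD8 before HBL1), 6 for NGI-1 against acalabrutinib in TMD8, and 8, 46 and 8 in HBL1 for NGI-1 against acalabrutinib, NGI-1 against copanlisib and copanlisib against acalabrutinib. In DMSO over time the block gave 40 in TMD8, and between lines 38 higher and 20 lower. Deviations of same-numbered libraries correlated at 0.0467 to 0.302 over 36 pairs of groups, 24 of them over 0.1, among these all 18 in HBL1 (0.118 to 0.237). The labels name no shared batch and a comparison has only 2 pairs, so the number was not taken as a pairing.

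With each library left out in turn, the members called at 24 h ranged from 12 to 15 and 5 to 8 with NGI-1 (TMD8, HBL1), 11 to 22 and 9 to 21 with acalabrutinib, and 12 to 44 and 36 to 49 with copanlisib. They ranged from 0 to 2 for copanlisib at 6 h in TMD8 and 0 to 1 for the line difference of copanlisib. For time differences the ranges were 1 to 3 and 0 to 1 (NGI-1), 1 to 3 and 0 to 2 (acalabrutinib), and 1 to 6 and 2 to 16 (copanlisib). They were 0 to 1 for NGI-1 against copanlisib in HBL1, 8 to 13 and 43 to 58 for DMSO over time, and 40 to 44 between lines. Fits with a library left out rest on fewer samples. The causes of the other shifts were not tested. With 2 libraries in a group, a member that was not called is not shown to be unchanged.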
